A study of Mus musculus with 12 samples.

Results

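Markers of the contractile and the inflammatory states of fibroblasts were followed across 12 subcutaneous tumors of a mouse pancreatic cancer cell line, in all 10 of the 22630 genes in the deposited tables, chosen by name. Acta2, Tagln, Myl9 and Cnn1 stand for the contractile state, Il6, Lif, Cxcl12 and Has1 for the inflammatory state, and Fap and Pdpn for activated fibroblasts in general. The tumors grew from KCip53-1, a single line from a mouse whose alleles included Ptf1a-Cre, TREp53R270H and R26rtTa/rtTa, in which Cre acts in the pancreatic epithelium and doxycycline (dox) switches on mutant p53R270H in the cancer cells. All tumors therefore carried the inducible p53R270H, the no-dox tumors included. The paper states that its KCip53 lines were sorted for dsRed, the reporter expressed with p53R270H, and then grown in culture with dox. The cells of the no-dox tumors had thus met dox before injection, and no-dox describes the mice. The hosts were NSG mice of 8 to 10 weeks, an immunocompromised strain without mature T, B and NK cells. Mutant p53 came with the injected cells and not from the host. Fibroblasts, myeloid cells and vessels are taken to be host cells, which was not tested in this bulk RNA. The no-dox mice (4 tumors) never received dox, the plus-dox mice (4 tumors) drank it at 0.2 g/L in water with 5% sucrose for 36 days, and the off-dox mice (4 tumors) drank it in the same way for 33 days and were then without it for 3 days. The labels do not say whether no-dox mice received sucrose, so dox, sucrose and p53R270H cannot be told apart as far as the labels go. As 2 tumors were implanted per mouse, some of the sequenced tumors may share a host, which the labels do not say.

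Fibroblasts of pancreatic tumors are known in several states. Myofibroblast-like cells lie close to cancer cells, respond to TGF-beta and build actin stress fibers, for which serum response factor and its cofactors drive smooth muscle genes. Inflammatory fibroblasts respond to IL-1 and JAK-STAT signaling and secrete cytokines and chemokines. None of the markers is exclusive to fibroblasts: pericytes and vascular smooth muscle use the contractile genes, and cancer cells can make cytokines.

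The label was first compared with broader markers. The 13 pan-fibroblast genes, among them Col1a2, Col3a1 and Sparc, summed to between 2340 and 5592 RPKM (reads scaled to exonic length and to the mapped reads of the tumor) in every tumor, and all 10 markers were detected in all 12 tumors. The 11 pericyte and vascular smooth muscle genes summed to 48.2 to 179 RPKM. This sum was highest in off-dox tumor 3, which also had the highest sum of 12 skeletal muscle genes, 1419 RPKM. Sums over different genes do not measure the shares of these cells in a tumor. These are bulk, unsorted tumors, so fewer fibroblasts and less RNA per fibroblast cannot be told apart, nor can host cells and cancer cells for genes that both express. Between 19845923 and 33137609 reads were counted per tumor. The first principal component, with 49.8% of the variance over 14548 expressed genes, separated 2 tumors, plus-dox 2 and off-dox 4, from the remaining 10, and the mean of 12 epithelial genes was lowest in both, at 3.68 and 4.94 log2 CPM (counts scaled to library size) against 5.42 to 6.85 in the others. Marker values, list medians and relations that depend on them are also given without them.

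Promoter sequences were available for 8 of the 10 genes, all but Tagln and Fap, from RefSeq on build GRCm38.p6, each with 250 bases before and 50 after the start. They are shown where a match to the CArG box, the element bound by serum response factor, or to the NF-kB motif was found in a marker that varied together with others or separated the groups below. Both strands were searched. Capitals mark the match and 10 bases are given on each side. A CArG box stood in 1.63% of all 32817 promoters, and one with a single G or C in its A/T core, a looser form chosen after reading these sequences, in 8.50%. The NF-kB motif stood in 8.46% of them.
Acta2, looser CArG box starting 84 bases before the start, chr19:34255438-34255467, minus strand: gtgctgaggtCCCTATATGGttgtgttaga
Acta2, looser CArG box 34 bases before the start, chr19:34255388-34255417, minus strand: cgtctttgctCCTTGTTTGGgaagcgagtg
Myl9, CArG box 161 bases before the start, chr2:156775293-156775322, plus strand: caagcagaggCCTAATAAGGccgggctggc
Myl9, looser CArG box 99 bases before the start, chr2:156775355-156775384, plus strand: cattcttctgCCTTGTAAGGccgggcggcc
Il6, NF-kB motif 44 bases before the start, chr5:30013060-30013089, plus strand: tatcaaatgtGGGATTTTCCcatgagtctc
Lif, NF-kB motif 178 bases before the start, chr11:4257380-4257409, plus strand: atcaagtacaGGGACGCCCCctccccacac
Neither form of the CArG box was found in the windows of Cnn1, Il6, Lif, Cxcl12, Has1 or Pdpn. The Myl9 window also held an NF-kB match that did not overlap its CArG boxes. Other motifs were searched as well, among them AP-1 (7.81% of all promoters) and MCAT (14.7%). AP-1 was matched in Il6 and Lif, 249 and 228 bases before the start, and MCAT in Acta2, 146 bases before it. These are matches of letters and not sites shown to be bound.

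Acta2, Tagln and Myl9 were abundant and Cnn1 was not, and the values of all 4 contractile markers overlapped between groups. Tagln, which encodes the actin-binding protein transgelin (chr9:45737806-45744141, minus strand, mm9), had the highest mean of the 10 genes, 228 RPKM over the 12 tumors. Tagln was at 240, 163, 328 and 201 RPKM in the no-dox tumors 1 to 4, at 258, 232, 324 and 183 in the plus-dox tumors and at 248, 177, 173 and 203 in the off-dox tumors. The groups overlapped throughout, and the lowest and the highest value both belonged to no-dox tumors. Acta2 (chr19:34315581-34329826, minus strand), which encodes smooth muscle actin, was at 138, 109, 160 and 128 RPKM in the no-dox tumors, at 135, 160, 165 and 117 in the plus-dox tumors and at 144, 98.7, 84.2 and 121 in the off-dox tumors. Its lowest values were in off-dox tumors 2 and 3, while off-dox tumor 1 lay within the range of the other groups.

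Myl9 (chr2:156601200-156607393, plus strand), a regulatory light chain of myosin, was at 32.9, 28.9, 33.1 and 35.5 RPKM in the no-dox tumors, at 34.2, 33.9, 36.3 and 31.1 in the plus-dox tumors and at 40.8, 24.2, 25.0 and 24.0 in the off-dox tumors. Off-dox tumors 2, 3 and 4 were below all 8 tumors of the other groups and off-dox tumor 1 was above them all. Cnn1 (chr9:21903697-21913665, plus strand), the actin-binding protein calponin, was at 5.08, 2.39, 7.35 and 3.70 RPKM in the no-dox tumors, at 5.52, 3.99, 5.91 and 3.78 in the plus-dox tumors and at 3.67, 3.32, 2.88 and 4.53 in the off-dox tumors. The no-dox tumors spanned all other values of this gene.

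Among the inflammatory markers, Il6 and Has1 were the lowest of the 10 genes, and Lif and Cxcl12 had means above that of Cnn1. Il6 (chr5:30339701-30346508, plus strand), the cytokine interleukin 6, was the least abundant, with 9 to 78 reads per tumor. Il6 was at 0.52, 0.58, 1.44 and 0.23 RPKM in the no-dox tumors, at 1.08, 2.19, 0.88 and 1.06 in the plus-dox tumors and at 0.52, 1.47, 0.81 and 0.77 in the off-dox tumors. No-dox tumors 1, 2 and 4 were below every plus-dox tumor, and no-dox tumor 3 was above 3 of the 4. Has1 (chr17:17980290-17992152, minus strand), a hyaluronan synthase, was at 0.78, 0.53, 2.66 and 0.55 RPKM in the no-dox tumors, at 0.84, 5.11, 1.28 and 1.60 in the plus-dox tumors and at 0.71, 1.27, 1.28 and 1.31 in the off-dox tumors. Plus-dox tumor 2 and no-dox tumor 3 stood above the rest.

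Lif (chr11:4157571-4172517, plus strand), leukemia inhibitory factor, a cytokine of the IL-6 family, was at 4.63, 5.33, 5.31 and 4.94 RPKM in the no-dox tumors. It was at 5.74, 17.0, 8.14 and 6.36 RPKM in the plus-dox tumors and at 5.74, 9.02, 6.15 and 13.0 in the off-dox tumors. All 8 tumors of mice that had received dox were above all 4 of mice that had not, by a narrow margin at the lower end. Plus-dox tumor 2 and off-dox tumor 4 were the highest. Cxcl12 (chr6:117118553-117131386, plus strand), the chemokine that binds CXCR4, was at 11.1, 7.02, 8.18 and 5.78 RPKM in the no-dox tumors, at 9.15, 11.1, 6.38 and 12.7 in the plus-dox tumors and at 4.34, 8.35, 15.8 and 6.76 in the off-dox tumors. The off-dox tumors held both its lowest and its highest value.

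Fap (chr2:62339002-62412078, minus strand), a surface protease of activated fibroblasts, was at 6.42, 5.77, 9.54 and 3.02 RPKM in the no-dox tumors, at 7.40, 16.01, 7.02 and 6.87 in the plus-dox tumors and at 4.87, 7.64, 6.28 and 11.9 in the off-dox tumors. Here too plus-dox tumor 2 and off-dox tumor 4 were the highest. Pdpn (chr4:142857325-142889410, minus strand), podoplanin, a membrane glycoprotein that lymphatic endothelium also carries, was at 11.5, 14.5, 12.0 and 9.92 RPKM in the no-dox tumors, at 10.3, 31.6, 15.7 and 10.8 in the plus-dox tumors and at 12.6, 9.92, 9.83 and 4.81 in the off-dox tumors. Plus-dox tumor 2 had the highest Pdpn value and off-dox tumor 4 the lowest, so the tumors that shared high Lif and Fap were at opposite ends for Pdpn.

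**Figure D1:**
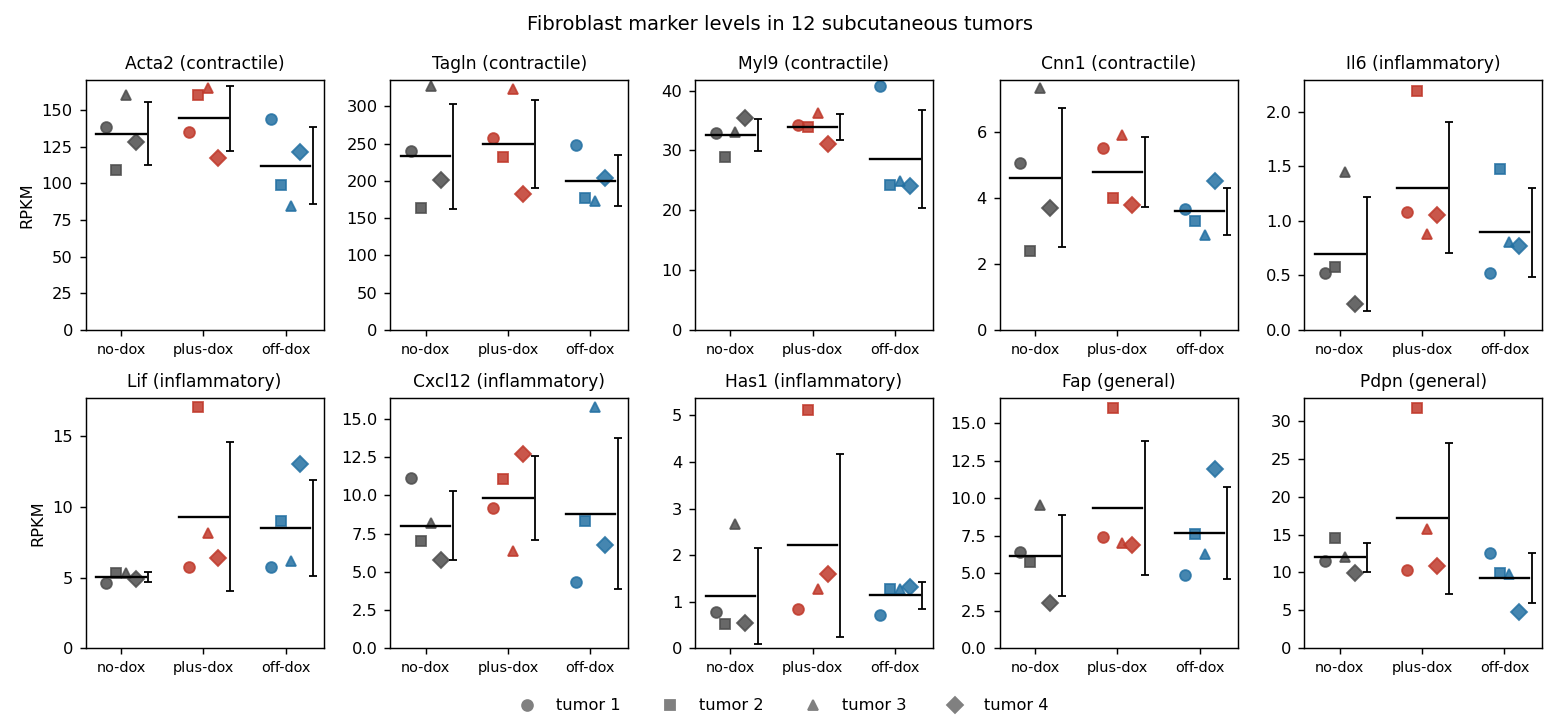
Level of each marker in RPKM (vertical axes, each starting at 0) by group (4 tumors each). Symbols are tumors 1 to 4 of a group, the black line is the group mean and the bar beside it the SD. Lif is the one marker whose no-dox tumors lie below all other tumors, and plus-dox tumor 2 (square) is the highest in Il6, Lif, Has1, Fap and Pdpn.

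Per length, the mean levels over the 12 tumors ran in the order Tagln, Acta2 (130 RPKM), Myl9 (31.7 RPKM), Pdpn (12.8 RPKM), Cxcl12 (8.88 RPKM), Fap (7.73 RPKM), Lif (7.62 RPKM), Cnn1 (4.35 RPKM), Has1 (1.49 RPKM) and Il6 (0.963 RPKM). In this order only Acta2 and Myl9 were neighbors whose ranges over the tumors did not overlap. The spread also differed between markers. The SD of log2 CPM over the 12 tumors was 0.25 for Myl9, 0.31 for Acta2, 0.36 for Tagln and 0.47 for Cnn1, against a median of 0.27 over 14548 expressed genes. It was 0.51 for Cxcl12, 0.61 for Lif, 0.61 for Pdpn, 0.62 for Fap, 0.80 for Il6 and 0.94 for Has1, and Has1 stood at percentile 93.4 of those genes. The low read counts of Il6 and Has1 add counting error to their spread.

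The first comparison asked how the markers differed while p53R270H was on. No marker of the 10 met the limits of the study (adjusted p under 0.1, a change over 1.5-fold, mean RPKM over 0.25, length over 250 bp) in edgeR's quasi-likelihood test or in DESeq2 when plus-dox was set against no-dox. Among all 17561 genes tested, 0% met them in edgeR, while some did in DESeq2, the tool of the study (counts in the last section). In edgeR 13.7% had an unadjusted p under 0.05. At that unadjusted level 1 of the 10 markers, Lif, was counted. All 10 mean log2 fold changes were above 0. The contractile genes differed by 0.06 (Cnn1) to 0.12 (Acta2), and the 95% interval of Acta2, -0.30 to 0.55, did not reach a 1.5-fold difference in either direction. Has1 had a log2 fold change of 0.97 with an interval from -0.41 to 2.36, Il6 one of 0.93 from -0.23 to 2.08, Fap one of 0.61 from -0.25 to 1.46, Pdpn one of 0.54 from -0.24 to 1.31 and Cxcl12 one of 0.30 from -0.43 to 1.03.

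Lif was higher by 0.90 ± 0.35 (log2, SE) in plus-dox than in no-dox tumors, with an adjusted p of 0.34 in edgeR. It was the only one of the 10 markers whose groups did not overlap, against 8.86% of all genes tested. An exact two-sided permutation test over the 70 arrangements of 4 against 4 tumors gave p = 0.029, the smallest this design allows, and an adjusted p of 0.43 over 30 tests. Without plus-dox tumor 2 the log2 fold change was 0.43 for Lif, 0.54 for Il6, 0.20 for Fap, 0.13 for Has1 and 0.06 for Pdpn. Without no-dox tumor 3 it was 1.60 for Il6, 1.88 for Has1, 0.92 for Fap and 0.40 for Cnn1. Without plus-dox tumor 3 those of Tagln and Cnn1 were -0.08 and -0.09.

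The second comparison, of off-dox with no-dox tumors, shares its controls with the first. In edgeR 1.34% of all genes tested met the limits, 181 of them higher and 54 lower in off-dox tumors, and 0 of the 10 markers did, in edgeR as in DESeq2. At an unadjusted p under 0.05 (20.4% of all genes) 1 marker was counted, again Lif. Its log2 fold change was 0.79 ± 0.35 (SE), with an interval from 0.01 to 1.56 and an adjusted p of 0.24 in edgeR. Its groups did not overlap (11.5% of all genes tested, and 1 of the 10 markers), with the same exact permutation p of 0.029 and adjusted p of 0.43. Without off-dox tumor 4 the Lif value was 0.48. The 4 contractile markers had log2 fold changes from -0.34 (Cnn1) to -0.17 (Myl9), and the intervals of all 4 held 0. Those of Tagln and Cnn1 depended on no-dox tumor 3, without which they were 0.04 and 0.01. Myl9 was -0.38 without off-dox tumor 1, with an adjusted p of 0.084 in edgeR and a fold change under the limit. Il6 had 0.41, Fap 0.35, Cxcl12 0.16, Has1 0.04 and Pdpn -0.34. Without no-dox tumor 3 Il6 was 1.09, Has1 0.94 and Fap 0.67. Without off-dox tumor 2 Il6 was 0.07, without off-dox tumor 3 Cxcl12 was -0.26, and without off-dox tumor 4 Fap was 0.03 and Pdpn -0.14.

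Between off-dox and plus-dox tumors, which bears on the 3 days after p53R270H was switched off, all 10 means were lower in the off-dox group, and none met the limits in edgeR or DESeq2 (0% of all genes tested in edgeR, 3.06% at an unadjusted p under 0.05). Pdpn was the one marker at that unadjusted level, with a log2 fold change of -0.88 ± 0.36 (SE), an interval from -1.67 to -0.10 and an adjusted p of 1 in edgeR, and it was -0.40 without plus-dox tumor 2. The contractile markers had -0.40 (Cnn1), -0.35 (Acta2), -0.30 (Tagln) and -0.24 (Myl9). Has1 had -0.93, which was -0.09 without plus-dox tumor 2, and Il6 had -0.51, which was -0.13. Fap had -0.25, Cxcl12 -0.14 and Lif -0.11, and without plus-dox tumor 2 Fap was 0.15 and Lif 0.36. No marker separated these groups (1.4% of all genes tested did). The plus-dox tumors are shared with the first comparison, so the signs here are not independent of those there.

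**Figure D2:**
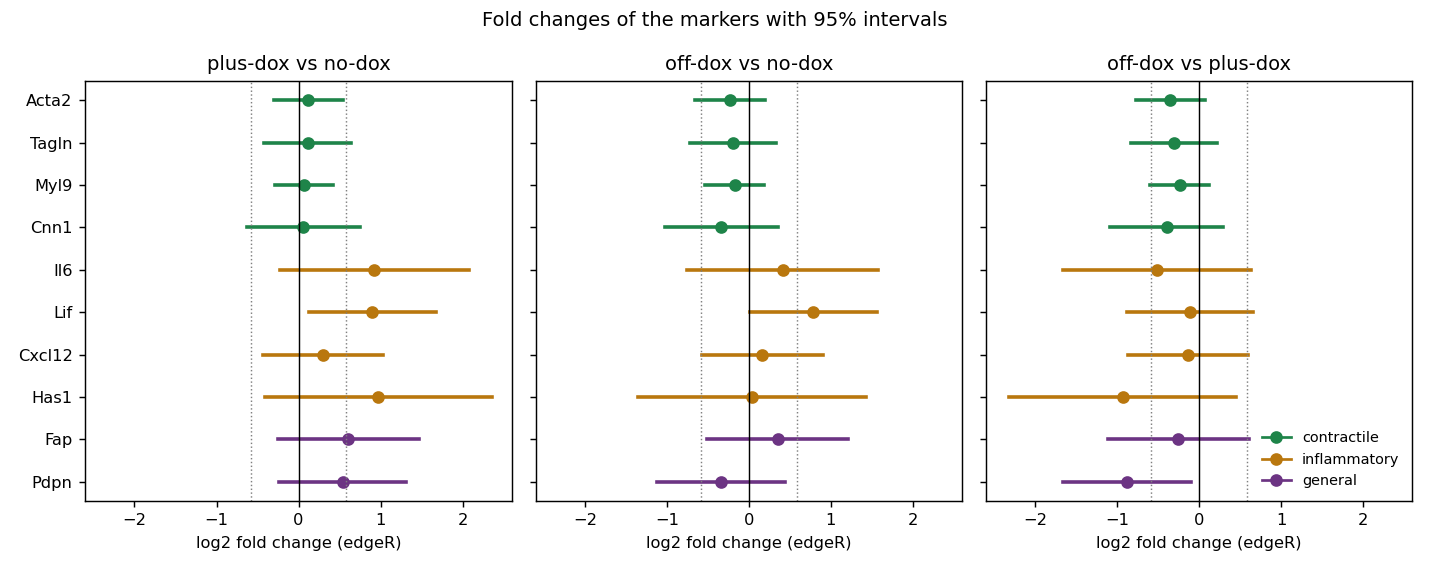
Log2 fold changes of the 10 markers (points) with 95% intervals (bars) in the 3 comparisons, from 1 edgeR fit of 12 tumors. Dotted lines mark 1.5-fold. Intervals of the contractile genes are the narrowest, and those of Lif in the first 2 panels and of Pdpn in the third leave out 0.

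The difference between the mean log2 CPM of the 4 contractile and the 4 inflammatory markers was 3.49 ± 0.37 (SD, n = 4) without dox, 2.85 ± 0.73 on dox and 2.87 ± 0.67 after dox. The ranges overlapped, from 3.16 to 3.98 without dox, from 1.91 to 3.49 on dox and from 2.42 to 3.84 after dox. The smallest value, 1.91, belonged to plus-dox tumor 2. Without it the mean on dox was 3.16 ± 0.46 (SD, n = 3), and without off-dox tumor 4 that after dox was 2.89 ± 0.82 (SD, n = 3).

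Across the tumors most pairs of contractile markers varied together, as did fewer pairs of inflammatory markers and Il6, Lif and Has1 with Fap. The relation of each pair was measured by Pearson's r and Spearman's rho of log2 CPM over the 12 tumors, with permutation p-values adjusted over the 45 pairs, and 10 pairs had an adjusted p under 0.1. Of the 6 pairs of contractile genes, 5 were among them. Tagln and Cnn1 had r = 0.91 (permutation p = 9e-05, adjusted p = 0.00405) and rho = 0.85 (permutation p = 0.00073, adjusted p = 0.0115). Acta2 and Tagln had r = 0.88 (permutation p = 0.00026, adjusted p = 0.00585) and rho = 0.87 (adjusted p = 0.0115). Of the expressed genes 0.0137%, Tagln among them, had an r with Acta2 at least as high. Acta2 had r = 0.79 with Myl9 (adjusted p = 0.0134, rho = 0.85) and 0.76 with Cnn1 (adjusted p = 0.0221, rho = 0.76), and Tagln had 0.68 with Myl9 (adjusted p = 0.0696, rho = 0.70), all by permutation. Myl9 and Cnn1, at r = 0.44, did not pass.

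Of the 6 pairs of inflammatory markers 2 passed, and of the 8 pairs of an inflammatory with a general marker 3 passed, all with Fap. Il6 had r = 0.84 with Has1 (permutation p = 0.00061, adjusted p = 0.00915, rho = 0.73 with adjusted p = 0.0545) and 0.84 with Fap (permutation p = 0.00091, adjusted p = 0.00945, rho = 0.80 with adjusted p = 0.0241). Has1 and Fap had r = 0.83 (adjusted p = 0.00945, rho = 0.85), Lif and Fap 0.79 (adjusted p = 0.013, rho = 0.73) and Lif and Has1 0.68 (adjusted p = 0.0696, rho = 0.66), all by permutation. Il6 and Lif, at r = 0.60 (adjusted permutation p = 0.164), did not pass. Cxcl12 had no pair that passed, and its r with the other inflammatory markers ran from 0.10 with Lif to 0.45 with Il6 and Has1. Pdpn had none either, and its highest r was 0.49, with Myl9.

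None of the 16 pairs of a contractile with an inflammatory marker passed. Their median r was 0.07 and they ran from -0.51 (Myl9 and Cxcl12) to 0.37 (Cnn1 and Has1). With 12 tumors a moderate correlation would not pass the adjustment, so these values do not show that the markers are unrelated.

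**Figure D3:**
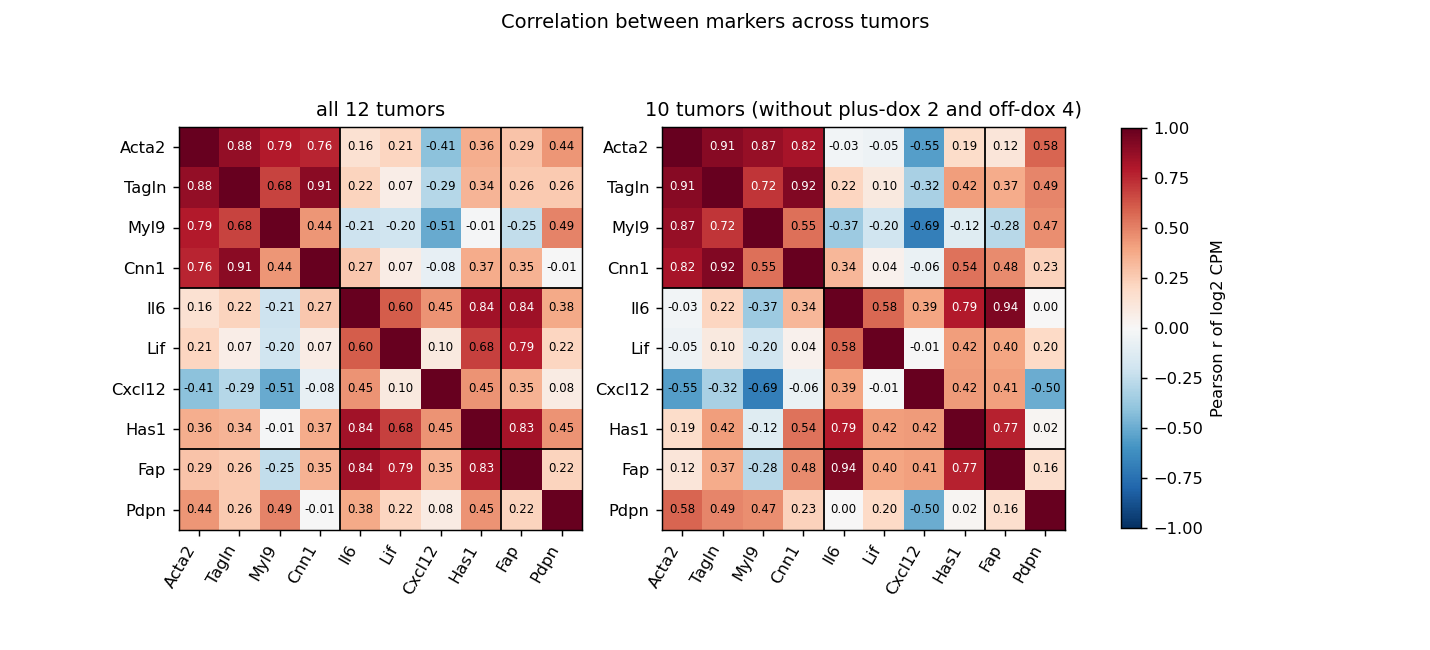
Pearson r of log2 CPM between the markers over 12 tumors (left) and over 10 tumors (right), on a scale from -1 to 1. Lines part contractile, inflammatory and general markers. The contractile block is high in both panels, while Lif with Fap is 0.79 on the left and 0.40 on the right.

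The same relations within groups and without the tumors that stood apart divided the pairs. With group means subtracted, 10 pairs passed, with Tagln and Cnn1 at r = 0.89, Acta2 and Tagln at 0.87 and Il6 and Fap at 0.81. Without plus-dox tumor 2 and off-dox tumor 4, 7 pairs passed. Tagln and Cnn1 had r = 0.92, Acta2 and Tagln 0.91, Acta2 and Myl9 0.87, Acta2 and Cnn1 0.82, Il6 and Fap 0.94, Il6 and Has1 0.79 and Has1 and Fap 0.77. Lif with Fap was at 0.40 (adjusted p = 0.496, permutation) and Lif with Has1 at 0.42 (adjusted p = 0.488, permutation), so both relations of Lif rested on these tumors. Tagln with Myl9 had 0.72 (adjusted p = 0.12, permutation). Leaving out the 2 tumors farthest from the median of the first gene instead gave r = 0.82 for Tagln and Cnn1, 0.87 for Acta2 and Tagln, 0.77 for Il6 and Has1, 0.56 for Il6 and Fap and 0.74 for Has1 and Fap.

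**Figure D4:**
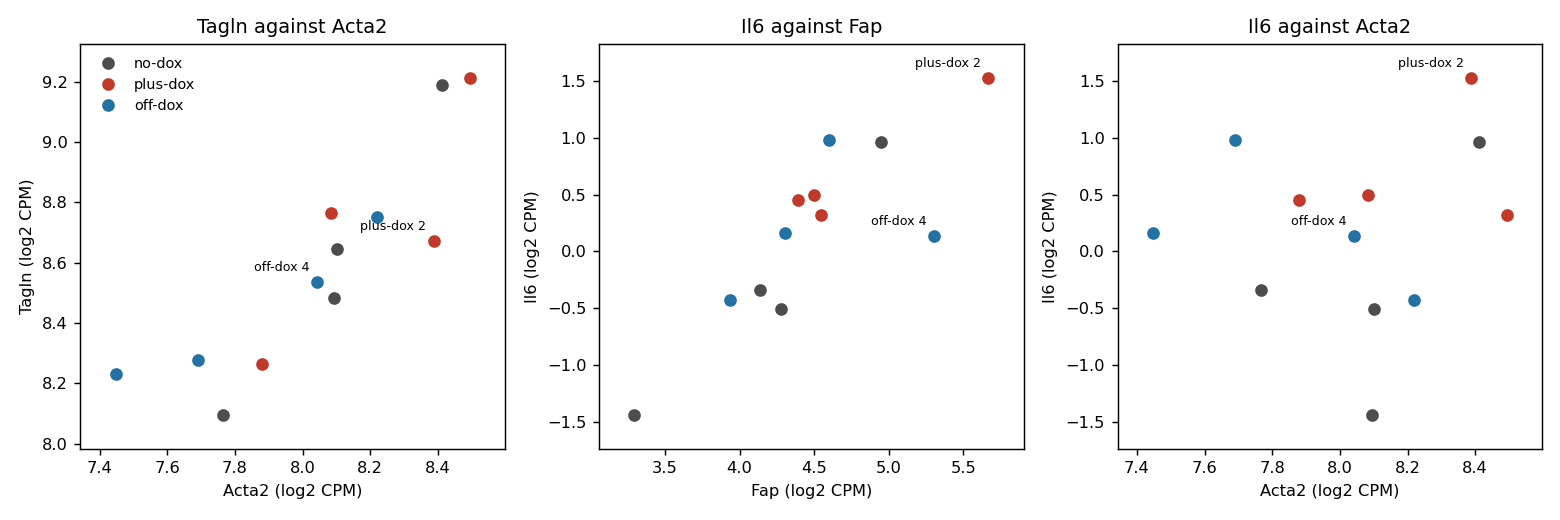
Log2 CPM of Tagln against Acta2 (left), Il6 against Fap (middle) and Il6 against Acta2 (right), each point a tumor colored by group. The first 2 panels, with r = 0.88 and 0.84, hold tumors of all groups along the slope, and the points of the third, with r = 0.16, are scattered. Both tumors that stood apart are named.

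Levels of other cell types moved with some markers. Over 12 tumors the mean of 10 endothelial genes had r = 0.85 with Has1, 0.84 with Fap and 0.82 with Lif, and that of the 13 pan-fibroblast genes had r = 0.84 with Has1 and 0.76 with Fap. The mean of 11 pericyte and vascular smooth muscle genes had r = 0.73 with Has1, 0.72 with Lif (rho = 0.87) and 0.68 with Il6. Il6 also had r = 0.69 with the endothelial and 0.69 with the pan-fibroblast mean. The epithelial mean had r = -0.76 with Fap, -0.71 with Has1 and -0.70 with Lif. Of 80 such relations, computed after the marker values were seen, 13 had an adjusted permutation p under 0.1 over 12 tumors and 0 over the 10 tumors, where the lowest adjusted p was 0.22. None of the 13 held a contractile gene. For Acta2, Tagln, Myl9 and Cnn1, r with the pan-fibroblast mean was 0.65, 0.52, 0.30 and 0.48, and over the 10 tumors 0.61, 0.66, 0.31 and 0.68. With the endothelial mean it was 0.56, 0.39, 0.17 and 0.36, and over the 10 tumors 0.58, 0.67, 0.32 and 0.68. With the macrophage and monocyte mean it was -0.58, -0.35, -0.28 and -0.45. With the pericyte and vascular smooth muscle genes r was 0.18, 0.28, -0.04 and 0.20, and with 12 skeletal muscle genes -0.31, -0.11, -0.24 and -0.19. For Il6, Lif, Cxcl12, Has1, Fap and Pdpn, r with the skeletal muscle mean was 0.61, 0.15, 0.59, 0.38, 0.27 and 0.40. Over the 10 tumors it was 0.66, 0.54, 0.57, 0.41, 0.58 and -0.23. The adjusted permutation p over 12 tumors was 0.17 for Il6 and for Cxcl12. Skeletal muscle genes summed to 11.5 to 1419 RPKM, the most in off-dox tumor 3, where Cxcl12 was also highest. The mean of 8 adipocyte genes had r = 0.60 with Cxcl12, 0.54 with Fap and 0.51 with Il6, and -0.39 to 0.41 with the others. With the epithelial mean as a covariate in the edgeR fit, the plus-dox value exceeded the no-dox value by 0.54 for Lif, 0.62 for Il6, 0.38 for Has1 and 0.23 for Fap on the log2 scale. The part of the other cell types in the marker values was not tested.

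Genes whose levels were among the closest to each marker over the 12 tumors, in a search of 14538 expressed genes outside the 10, were Thy1 (r = 0.87) for Acta2, Gpr1 (0.86) and Tmem159 (0.85) for Tagln, Dkk3 (0.93) and Ier5 (0.89) for Myl9, and Actg2 (0.83) and Nptx2 (0.83) for Cnn1. Thy1, a surface marker of fibroblasts, was also on the pan-fibroblast list, and Actg2, an actin of enteric smooth muscle, on that of other myofibroblast genes. For the inflammatory genes they were Islr2 (0.91) and Kctd12b (0.91) for Il6, Usp43 (0.97) and Smtn (0.97) for Lif, BC055004 (0.92) and Clec4a2 (0.92) for Cxcl12, and Hpgd (0.93) and Fibin (0.93) for Has1, and Smtn was also on the pericyte and vascular smooth muscle list. Slc43a3 (0.97) and Dsel (0.97) were closest to Fap, and Gm14207 (0.95) and Cck (0.93) to Pdpn. These were the highest values of a search over many genes and carry no test. Without plus-dox tumor 2 and off-dox tumor 4 they ran from 0.74 (Pdpn with Cck) to 0.96 (Fap with Slc43a3).

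Receptors and partners of the secreted markers were read from the same fit. Il6ra, the ligand-binding receptor of interleukin 6, had a mean of 3.63 ± 0.14 RPKM (SD, n = 4) without dox, 4.55 ± 1.15 on dox and 4.54 ± 0.55 after dox, and both dox groups lay wholly above the no-dox group. Its log2 fold changes of 0.33 (adjusted p = 0.36 in edgeR) and 0.35 (adjusted p = 0.21 in edgeR) did not pass. Il6st, the shared signaling chain, had 28.3 ± 0.82, 29.4 ± 2.35 and 25.6 ± 1.96 RPKM in the 3 groups, and Lifr, the receptor of LIF, 2.85 ± 0.25, 3.63 ± 0.74 and 3.44 ± 0.95 RPKM. Cxcr4 had 10.7 ± 1.89, 12.6 ± 2.91 and 14.0 ± 2.20 RPKM, Cxcr7, the scavenging receptor of CXCL12, 27.0 ± 8.41, 36.2 ± 20.7 and 24.7 ± 7.57 RPKM, and Dpp4, a protease that cleaves CXCL12, 1.43 ± 0.31, 1.43 ± 0.45 and 1.27 ± 0.31 RPKM. None of them passed in edgeR.

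Has2, a second hyaluronan synthase, was more abundant than Has1, with 5.44 ± 2.47, 11.3 ± 10.9 and 5.00 ± 2.73 RPKM (SD, n = 4), and its plus-dox value exceeded the no-dox value by 1.06 on the log2 scale, with an interval from -0.19 to 2.31. It was 0.09 without plus-dox tumor 2 and off-dox tumor 4, with an interval from -0.54 to 0.72. Has3 had 0.60 ± 0.09, 0.85 ± 0.34 and 0.95 ± 0.38 RPKM, and Cd44, the receptor of hyaluronan, 140 ± 18.2, 138 ± 40.8 and 131 ± 47.6 RPKM. Of the 10 genes of hyaluronan synthesis, turnover and binding, 0 passed in any comparison in edgeR.

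Gene lists of the same pathways were described by their counts and medians, beside a median over all genes of 0.01 in both comparisons with no-dox tumors. With plus-dox set against no-dox, 13 of 17 other myofibroblast genes had values above 0 (median log2 fold change 0.24), as did 12 of 13 pan-fibroblast genes (median 0.44), 12 of 19 other inflammatory fibroblast genes (median 0.45), 11 of 14 TGF-beta ligands, receptors and targets (median 0.20), 14 of 18 contractile regulators (median 0.17) and 15 of 17 genes of the IL-6 family, IL-1 and JAK-STAT (median 0.10). None of them passed in edgeR. Of 7 genes of antigen-presenting fibroblasts 2 were above 0 (median -0.51). Which cells of the bulk tumors gave the values of this list, which held Cd74 and Msln, was not tested. Markers of other cells differed as well in this comparison. All 10 endothelial genes (median 0.53), all 11 pericyte and vascular smooth muscle genes (median 0.63) and all 12 skeletal muscle genes (median 1.43) were above 0, and 10 of 12 epithelial genes were below 0 (median -0.61), none past the limits in edgeR. All 8 adipocyte genes were below 0 (median -0.39) and 5 of 6 neutrophil genes were above 0 (median 0.65), with 0 past the limits in edgeR. Macrophage and monocyte genes had a median of 0.01.

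Without plus-dox tumor 2 and off-dox tumor 4 the medians were 0.10 for the other myofibroblast genes, 0.21 for the pan-fibroblast genes, 0.11 for the other inflammatory fibroblast genes, 0.10 for the TGF-beta genes and 0.14 for the contractile regulators, with 0.12 for the IL-6 family, IL-1 and JAK-STAT genes. They were 0.26 for the endothelial, 0.45 for the pericyte and vascular smooth muscle, 0.95 for the skeletal muscle and -0.41 for the epithelial genes. For the antigen-presenting fibroblast genes the median was -0.43, for the adipocyte genes -0.40 and for the neutrophil genes 0.61.

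In the off-dox against no-dox comparison 3 genes of these lists met the limits in edgeR. Cxcl2, a neutrophil-attracting chemokine, rose by 1.95 (log2, adjusted p = 0.088), Il1b, the cytokine interleukin 1 beta, rose by 0.87 (adjusted p = 0.088), and Ly6c1 fell by 0.61 (adjusted p = 0.097). The neutrophil genes Csf3r and Cxcr2 rose as well, by 0.78 and 0.90 (adjusted p = 0.083 for both in edgeR). Among the 12 skeletal muscle genes, whose median was 2.82, Actn3 rose by 4.53 (adjusted p = 0.088 in edgeR). These calls stood close to the limit, and the number of genes called in this comparison ran from 0 to 789 when single tumors were left out. Ly6c1 had -0.44, under the fold limit, without plus-dox tumor 2 and off-dox tumor 4, and the others named here still passed. The medians were -0.12 for the pan-fibroblast genes, -0.17 for the other inflammatory fibroblast genes and 0.04 for the other myofibroblast genes, and without those tumors -0.21, -0.14 and -0.17. That of the 8 adipocyte genes was -1.15, and -1.71 without those tumors. Between off-dox and plus-dox tumors 12 of 13 pan-fibroblast genes were below 0 (median -0.54), with 8 of them at an unadjusted p under 0.05 in edgeR and 0 past the limits, beside 14 of 17 other myofibroblast genes (median -0.30) and 17 of 19 other inflammatory fibroblast genes (median -0.42). Col1a2, a chain of type I collagen, had -0.63 and Col3a1, type III collagen, -0.80, both with an adjusted p of 1 in edgeR. All 10 endothelial genes were below 0 as well (median -0.46), while 8 of 10 macrophage and monocyte genes were above 0 (median 0.04) and the pericyte and vascular smooth muscle genes had a median of -0.10. Without plus-dox tumor 2 and off-dox tumor 4 the medians were -0.38 for the pan-fibroblast genes, with 3 of 13 at an unadjusted p under 0.05, -0.39 for the other myofibroblast genes, -0.25 for the other inflammatory fibroblast genes and -0.26 for the endothelial genes.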

How the data were processed

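PolyA+ RNA of 12 bulk tumors in 3 groups of 4 was sequenced without strand information, so overlapping genes on opposite strands cannot be told apart. Single-end reads of 50 bp were mapped to mm9 by the authors with TopHat (version 1.4.1, per the submitters' processing notes, which also name Bowtie 0.12.8, CASAVA 1.8.2 and bedtools 2.16.2) and deposited 1 table per tumor for 22630 genes. The expected counts deposited there are base-wise coverage of unambiguous exonic spans in reads, partly fractional and not normalized. The RPKM values of the authors divide them by exonic length and mapped reads. The handling of duplicate and multiply mapped reads is not given in the sources used here.

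The counts were rounded to whole numbers and tested with edgeR (version 4.0.16, TMM, quasi-likelihood) in 1 fit of the 12 tumors, over 17561 genes with at least 10 summed counts, with Benjamini-Hochberg adjustment over all of them. The limits of the study were kept (adjusted p under 0.1, change over 1.5-fold, mean RPKM over 0.25, length over 250 bp). The study applied them to adjusted p-values of DESeq2, which is an alternative here. A positive value means higher in the group named first. Intervals are 95% intervals of the edgeR fit. Log2 CPM used a prior count of 2. Exact two-sided permutation tests used all 70 arrangements and relations 100000 permutations, which allow no p below 1e-05. The edgeR and DESeq2 fits and the relations were tested on simulated data, and the exact test on a constructed case. Tests treat tumors as independent, although the labels do not say whether any shared a mouse, in which case p-values are too small.

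The 10 genes and the lists of other genes were chosen with earlier results of these data known. Named beside the 10 genes are the most abundant and the called genes of those lists, receptors and partners of the secreted markers, and the 2 genes closest to each marker, of which 1 is not reported here. Not all of the listed genes are printed. Alternatives were RLE normalization, DESeq2 (version 1.42.0) both moderated and unmoderated, no count filter, at least 10 counts in every tumor, a replicate block, the 8 tumors of a comparison alone, the epithelial mean as a covariate, an adjusted p under 0.05, and leaving out each tumor or plus-dox tumor 2 with off-dox tumor 4. The last was extended to the list medians and the balance of the classes after seeing the data. Replicate numbers did not pair the tumors: deviations of same-numbered tumors had a mean r of -0.09 over 12 pairs, against 0.04 over 36 pairs with different numbers.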

Additional observations from a re-analysis of the deposited data

Results flagged for a closer look

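In 30 sets of 4 tumors (10 markers in 3 groups) 4 held a value, from 2 tumors in all, that lay far from the others of its group by Dixon's 95% limit on the gap, the distance to the nearest tumor divided by the range of the group in log2 CPM. Chance gives about 1 in 20 sets. Myl9 in off-dox tumor 1 was the highest of its group (40.8 RPKM, gap 0.9368). Has1 in off-dox tumor 1 was the lowest (0.71 RPKM, gap 0.886). Il6 (2.19 RPKM, gap 0.8588) and Fap (16.01 RPKM, gap 0.8798) were both highest in plus-dox tumor 2, the tumor that also stood apart on the first principal component and had the lowest epithelial mean.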

How the results depend on the processing

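None of the 10 markers met the limits in any comparison under any alternative run, although Myl9 between off-dox and no-dox tumors had an adjusted p of 0.084 without off-dox tumor 1, at a fold under the limit. The number of all genes called varied far more. For plus-dox against no-dox it was 0, with 128 and 90 in DESeq2 without and with moderated fold changes and 0 to 3 when single tumors were left out. Between off-dox and no-dox tumors it was 235, with 615 and 396 in DESeq2, 122 without a count filter, 365 with at least 10 counts in every tumor, 3 with the 8 tumors alone, 0 with an adjusted p under 0.05, 471 without plus-dox tumor 2 and off-dox tumor 4, 354 with the epithelial covariate and 0 to 789 when single tumors were left out. With the replicate block it was 0, but the numbers share no known pairing. Between off-dox and plus-dox tumors it was 0, with 6 and 4 in DESeq2 and 0 to 1 when single tumors were left out. The cause of these differences was not tested. The sign of a fold change turned as follows. Has1 between off-dox and no-dox tumors was -0.045 without plus-dox tumor 2 and off-dox tumor 4 and -0.18 with the epithelial covariate. Between off-dox and plus-dox tumors Lif was 0.053 and 0.023 under the same settings, and Cxcl12 was 0.039 without those tumors. When single tumors were left out, log2 fold changes between plus-dox and no-dox tumors ran from -0.076 to 0.34 for Tagln and from -0.16 to 0.40 for Cnn1, those between off-dox and no-dox tumors from -0.34 to 0.042 for Tagln, from -0.56 to 0.0054 for Cnn1, from -0.20 to 0.94 for Has1 and from -0.26 to 0.39 for Cxcl12, and those between off-dox and plus-dox tumors from -0.42 to 0.36 for Lif, from -0.58 to 0.15 for Fap and from -0.56 to 0.093 for Cxcl12. Of the 45 relations between markers, 10 passed also with a prior count of 0.5, with RLE normalization and with group means subtracted. With 4 tumors a group, the intervals of Il6 and Has1 leave differences of either direction possible, and their read counts of 9 to 78 and 33 to 351 limit single values.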
